A study of Homo sapiens with 2 samples.

Results

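The Hippo effector genes examined here are the 4 TEAD transcription factors (TEAD1, TEAD2, TEAD3 and TEAD4), the coactivators YAP1 and WWTR1 (also called TAZ), the cofactors VGLL1, VGLL3 and VGLL4, and WWC1 (also called KIBRA), 10 of 19970 protein-coding genes in all. A peak of accessible chromatin was taken as a member where its summit lay in the hg38 body of one of these genes or within 50 kb of it. That gave 371 of 295753 peaks of the primed library and 361 of 299673 peaks of the hTBLC library. Merging peaks of both libraries that overlapped or touched gave 399 sites near the 10 genes, of 336212 sites in all. The summit nearest to the limit inside it was a primed peak 48984 bp from YAP1 with a pileup of 28, and the nearest outside was an hTBLC peak 50599 bp from WWTR1 with a pileup of 13. The genes were selected on the pileups of these same 2 libraries as well as on their function, a strong hTBLC region in WWC1 being already known, so the values of that region are given as a description.

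ATAC-seq, in which a transposase inserts adapters into open DNA, was applied to WIBR3, an established human embryonic stem cell line. One library came from primed cells, the usual cultured state of these cells, and 1 from hTBLCs, the study's totipotent blastomere-like cells, obtained through spliceosomal repression. Both carry the cell type label hESC, 50000 living cells were collected for each, and no agent, dose, time or passage is given in the labels for either. The question was which chromatin was more open or more closed in hTBLCs than in hESCs.

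Each group has 1 library, so replicate spread is unknown and the conditions were not tested against each other. Pileups, the numbers of reads or fragments stacked at a summit, carry exact Poisson 95% intervals, and ratios exact binomial ones, all of which cover counting error only. The median pileup over all peaks was 18 (primed) and 17 (hTBLC). Ratios are hTBLC over primed, divided by a relative depth of 1.09 read from the background of the 2 lists. This scaling lowers every ratio by 0.13 on the log2 scale, and the median over all 147703 shared sites with a ratio was 0.913 with it and 1 without it. Of the marker genes of pluripotent cells with an annotated start, 7 of 7 had a peak there in both libraries. Intervals of the ratio lay below 1 at SOX2 (0.669), NANOG (0.548) and L1TD1 (0.587). At NANOG the upper bound was 0.968, so that call rests on the scaling for depth. At LIN28B (1.30), DPPA4 (1.34) and ZIC2 (1.27) the ratio was above 1, with intervals that included 1. Without an annotated start, POU5F1 had a peak at a gene end in the primed library alone, with a pileup of 37. At gene ends PRDM14 had a ratio of 0.467 and SALL4 one of 0.862, with an interval that included 1 at SALL4. LIN28A had pileups of 47 (primed) and 91 (hTBLC) at its gene ends, in peaks that did not overlap. At the annotated start of DNMT3B they were 59 (primed) and 85 (hTBLC), also in peaks that did not overlap. For 8-cell stage genes the count was 0 of 7, with KLF17 and H3Y1 open in the primed library alone, DPPA3 in the hTBLC library alone and no peak at 4. For trophectoderm genes it was 4 of 7, with TP63 open in the primed library alone and no peak at 2. The ratio was 1.53 (1.12 to 2.10) at GATA3 and 0.947 (0.640 to 1.40) at GATA2. TFAP2A had pileups of 58 (primed) and 23 (hTBLC) and CDX2 of 26 and 34, in peaks that did not overlap. Of 2 fibroblast genes with an annotated start, 1 was open in both libraries and 1 in the hTBLC library alone. Gene ends of these other lists went both ways, with intervals below 1 at KRT7 (0.256) and COL1A1 (0.690) and above 1 at LUM (2.48). At COL1A1 the upper bound was 0.956, so that call too rests on the scaling. The intervals included 1 at TFAP2C (1.06), TPRX1 (0.834), COL1A2 (1.02) and DCN (0.620). ARGFX and COL3A1 had a peak at a gene end in the hTBLC library alone, with pileups of 13 and 14.

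The Hippo pathway is a kinase cascade that restrains growth and relays cell contact and polarity to the nucleus. Its kinases, STK3 and STK4 followed by LATS1 and LATS2, phosphorylate YAP1 and WWTR1 and keep them out of the nucleus. Unphosphorylated YAP1 and WWTR1 enter the nucleus and bind TEAD proteins, which hold the DNA-binding domain, and VGLL proteins bind the same TEAD partners. WWC1 is a scaffold that acts upstream of the LATS kinases. In the early mammalian embryo, outer and inner cells differ in this signalling, and TEAD4 with YAP1 is known for switching on the trophectoderm program.

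The 250 bases ahead of 6 annotated starts are shown because they span the range of accessibility among the members: WWC1, the start of lowest ratio; YAP1, a strong start in both libraries; the open and the closed start of WWTR1; VGLL1, with no peak in either library; and the VGLL4 start open in the hTBLC library alone. They are RefSeq sequences of GRCh38.p14, 5′ to 3′ on the gene's strand. Capitals mark a TEAD core (GGAATG) or a GC box (GGGCGG) on either strand; the AP-1 site (TGANTCA), also searched on both strands, overlaps neither by its letters and had no match.
WWC1, chr5:168291395-168291644, plus strand: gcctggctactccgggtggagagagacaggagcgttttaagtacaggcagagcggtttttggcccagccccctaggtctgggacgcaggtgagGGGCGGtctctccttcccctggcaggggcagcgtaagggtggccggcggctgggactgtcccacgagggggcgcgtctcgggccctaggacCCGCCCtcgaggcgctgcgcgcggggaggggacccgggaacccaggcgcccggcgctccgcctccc
YAP1, chr11:102110197-102110446, plus strand: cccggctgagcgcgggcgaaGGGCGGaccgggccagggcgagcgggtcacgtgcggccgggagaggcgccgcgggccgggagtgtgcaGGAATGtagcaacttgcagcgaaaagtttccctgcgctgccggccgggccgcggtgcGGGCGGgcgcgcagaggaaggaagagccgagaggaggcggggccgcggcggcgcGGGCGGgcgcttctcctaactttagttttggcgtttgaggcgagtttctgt
WWTR1 open start, chr3:149658026-149658275, minus strand: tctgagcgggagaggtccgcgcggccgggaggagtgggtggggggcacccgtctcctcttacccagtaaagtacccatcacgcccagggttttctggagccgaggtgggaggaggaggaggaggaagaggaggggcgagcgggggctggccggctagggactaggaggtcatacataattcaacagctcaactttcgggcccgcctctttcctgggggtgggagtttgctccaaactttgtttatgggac
WWTR1 closed start, chr3:149703274-149703523, minus strand: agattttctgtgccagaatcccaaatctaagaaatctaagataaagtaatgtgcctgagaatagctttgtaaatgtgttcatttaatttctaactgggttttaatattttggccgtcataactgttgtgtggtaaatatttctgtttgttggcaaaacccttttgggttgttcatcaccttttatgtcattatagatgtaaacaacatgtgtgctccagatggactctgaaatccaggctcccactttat
VGLL1, chrX:136531965-136532214, plus strand: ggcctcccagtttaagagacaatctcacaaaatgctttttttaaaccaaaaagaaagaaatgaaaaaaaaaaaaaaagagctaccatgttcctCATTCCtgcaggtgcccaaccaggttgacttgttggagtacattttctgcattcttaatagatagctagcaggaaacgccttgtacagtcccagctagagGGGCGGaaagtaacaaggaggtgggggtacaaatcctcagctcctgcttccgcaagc
VGLL4 start open in hTBLC alone, chr3:11604582-11604831, minus strand: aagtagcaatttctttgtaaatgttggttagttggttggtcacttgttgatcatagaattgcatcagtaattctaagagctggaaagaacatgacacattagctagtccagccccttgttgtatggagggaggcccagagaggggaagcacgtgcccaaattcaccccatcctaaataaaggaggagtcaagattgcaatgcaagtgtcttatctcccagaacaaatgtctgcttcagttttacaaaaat

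Of all 22131 promoter windows of protein-coding genes of this length, 10.5% held a TEAD core, 5.35% an AP-1 site and 53.7% a GC box. Among the 14 windows of the 8 members in the table (TEAD1 and TEAD4 have none), 2 held a TEAD core, 0 an AP-1 site and 9 a GC box. The TEAD cores stand 162 bases before the start of YAP1 and 157 before that of VGLL1, the one an open and the other a closed start. The printed windows differ widely in base composition. The open WWTR1 window is 62.0% G and C and the closed one 35.2%, the YAP1 window 72.0% and the WWC1 window 72.4%, while VGLL1 has 43.6% and the VGLL4 start open in hTBLC alone 41.6%. The hTBLC peak of that VGLL4 start lay inside the gene, at chr3:11603633-11603928, and the printed window held no peak of either library. At VGLL4 a start open in both libraries had 49.2% and one with no peak 61.6%. Over all windows the median was 64.8% for 17001 starts open in both libraries, 47.2% for 3712 open in neither, 48.8% for 648 open in the hTBLC library alone and 55.2% for 770 open in the primed library alone.

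Near the Hippo effector genes, sites found in one library alone were almost equally many on both sides. Of the 399 sites, 182 were shared (45.6%, Wilson 95% interval 40.8 to 50.5), 107 were primed only (26.8%, 22.7 to 31.4) and 110 were hTBLC only (27.6%, 23.4 to 32.2). Over the whole genome 26.8% of sites were primed only and 29.2% hTBLC only. Of the library-only sites near the 10 genes 50.7% (44.1 to 57.3) were hTBLC only, against 52.1% of all library-only sites. An excess of hTBLC-only sites was found at 4 of the genes (33.4% of all protein-coding genes had one), an excess of primed-only sites at 4 (52.1% of all genes), and TEAD4 and WWC1 had equal numbers.

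The single genes differed among themselves. YAP1 had 23 hTBLC-only and 12 primed-only sites, a difference of 11 reached by 1.35% of genes; this measure grows with gene length, and the share of 65.7% (49.2 to 79.2) was reached by 10.2% of the 2187 genes with at least 20 library-only sites. TEAD3 leaned the other way, with 3 hTBLC-only and 10 primed-only sites, and 6.32% of genes had a difference at least as low. Its hTBLC-only share was 23.1% (8.18 to 50.3), beside 52.1% of all library-only sites. The weakest of its primed-only sites had −log10 q values of 1.01 and 0.759. More hTBLC-only than primed-only sites were found at WWTR1 (21 and 17), TEAD2 (5 and 4) and VGLL1 (2 and 0). More primed-only sites were also found at TEAD1 (22 hTBLC only, 25 primed only), VGLL4 (13 and 17) and VGLL3 (5 and 6), differences of 1 to 4 sites. The YAP1 excess depended on the weak peaks: with a −log10 q of at least 5 in both lists it was 11 against 7, and with at least 10 it was 5 against 5.

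**Figure D1:**
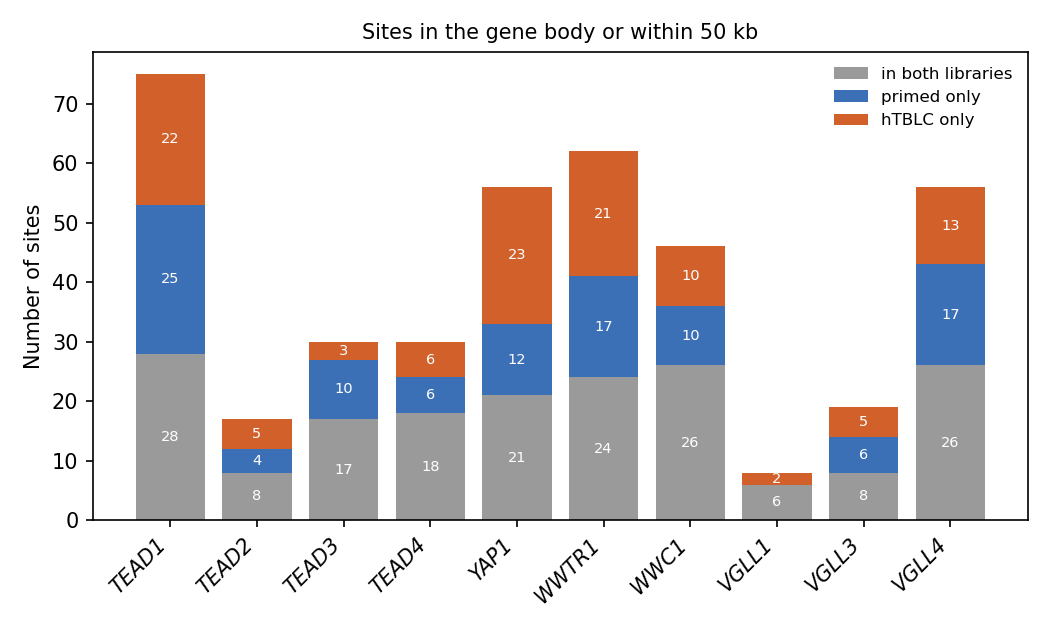
Number of sites in each gene body or within 50 kb, stacked by class: in both libraries (grey), in the primed library only (blue) and in the hTBLC library only (orange). YAP1 has the largest hTBLC-only excess, 23 against 12, and TEAD3 the largest primed-only excess, 10 against 3.

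Within 1 kb of the members' annotated starts, 12 of 15 sites were shared, and 80.5% of 18395 sites at the starts of protein-coding genes were. With the ends of TEAD1 and TEAD4 it was 16 of 21. Elsewhere in the gene bodies 94 of 229 sites (41.0%) were shared and in the flanks 65 of 135 (48.1%), beside 41.8% of all sites away from starts. A further 14 sites lay at starts of neighbouring genes, 7 of them shared.

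An annotated start was open in both libraries at 7 of the 8 genes that have one, VGLL1 being the exception, and a gene end was open in both at TEAD1 and TEAD4. Among all 15811 protein-coding genes with one, 79.3% were open in both, 2.9% in primed cells alone and 2.25% in hTBLCs alone. The strongest peak of each library there gave a ratio for 9 genes, and at 7 of them the interval of the ratio included 1. WWC1 was lower in hTBLC and TEAD1 higher. The median ratio of the 9 was 0.955 (1.05 without the scaling for depth), beside 1.02 over 11822 genes (quartiles 0.822 to 1.24; median 1.12 without the scaling).

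Among the DNA-binding TEAD factors, TEAD1 had at its lower-coordinate gene end a primed pileup of 78 (61.7 to 97.3) and an hTBLC pileup of 125 (104 to 149). The ratio was 1.46 (1.09 to 1.97). Its other end had a weak peak in the hTBLC library alone, with a pileup of 11 (5.49 to 19.7). TEAD2, TEAD3 and TEAD4 had similar pileups in both libraries. The strongest peak reaching into the 1 kb around the TEAD2 start reached 127 (106 to 151) in primed and 128 (107 to 152) in hTBLC cells, a ratio of 0.920 (0.714 to 1.19; 1.01 without scaling), but its summits lay 1260 bp or more upstream and nearer to the start of the neighbouring gene DKKL1, 201 bp away. The TEAD2 site with its summit 21 bp from that start was weaker, with 34 (primed) and 26 (hTBLC) and a ratio of 0.70 (0.40 to 1.20). The second annotated TEAD2 start had a site of its own in the hTBLC library alone, with a pileup of 40 (28.6 to 54.5). For TEAD3, with a summit 924 bp upstream, the primed pileup was 40 (28.6 to 54.5) and the hTBLC pileup 42 (30.3 to 56.8). The ratio was 0.959 (0.607 to 1.52), or 1.05 without scaling. That summit lay 130 bp from the start of the neighbouring gene LOC124901309. The site over the TEAD3 start itself was weaker, with 20 (primed) and 27 (hTBLC), summits 516 bp apart and a ratio of 1.23 (0.67 to 2.32). TEAD4 stood at 51 (38.0 to 67.1, primed) and 50 (37.1 to 65.9, hTBLC) at its lower-coordinate end, with 0.895 (0.594 to 1.35) as the ratio, and 44 and 41 at the other end, a ratio of 0.851. The strands of TEAD1 and TEAD4 were not used, so which of their ends is the 5′ end is not stated here.

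The coactivators YAP1 and WWTR1 had strong starts whose ratios included 1 in their intervals. At YAP1 the primed pileup was 131 (110 to 155), the hTBLC pileup 137 (115 to 162) and the ratio 0.955 (0.746 to 1.22; 1.05 without scaling). These strongest summits lay 1289 bp apart, and the pair of summits within 150 bp of each other had 131 and 132, a ratio of 0.920. WWTR1 reached 182 (157 to 210, primed) and 221 (193 to 252, hTBLC) at the start shown above as open, with 1.11 (0.907 to 1.36) as the ratio, and no peak of either library lay at its other annotated start.

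WWC1, the scaffold upstream of the kinases, was the member whose start differed most. The primed library had a pileup of 137 (115 to 162) there and the hTBLC library 62 (47.5 to 79.5), so that the intervals did not overlap. The ratio was 0.413 (0.301 to 0.562), or -1.27 on the log2 scale, and 0.45 without the scaling. It was the 1 member of 9 at or below 0.5, a level reached by 4.17% of all genes with a ratio at the 5′ end; 0 of 9 were at or above 2, reached by 2.05% of all genes.

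The VGLL cofactors had 3 patterns. VGLL3 was open in both libraries, with a primed pileup of 128 (107 to 152), an hTBLC pileup of 111 (91.3 to 134) and a ratio of 0.792 (0.609 to 1.03). VGLL1 had no peak within 1 kb of its start in either library, and its nearest sites, 2262 and 3410 bp upstream, were shared, with primed pileups of 25 and 28 and hTBLC pileups of 21 and 22. VGLL4 has 5 annotated starts, and they differed. At its strongest start the primed library had 114 (94.0 to 137), the hTBLC library 141 (119 to 166), and the ratio was 1.13 (0.876 to 1.46). Near the start farthest upstream the strongest summits, 827 and 873 bp inside the gene, had 103 (84.1 to 125) in primed cells and 71 (55.5 to 89.6) in hTBLCs, a ratio of 0.630 (0.459 to 0.860). The summits 42 and 8 bp from that start itself had 41 and 34, a ratio of 0.757 (0.466 to 1.22), and another start had 58 and 54, a ratio of 0.850. The start shown above had a peak in the hTBLC library alone, with a summit 785 bp inside the gene and a pileup of 34 (23.5 to 47.5), and the last had none. Of the 14 annotated starts of the 8 genes, 10 were thus open in both libraries, 3 in neither and 1 in the hTBLC library alone.

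**Figure D2:**
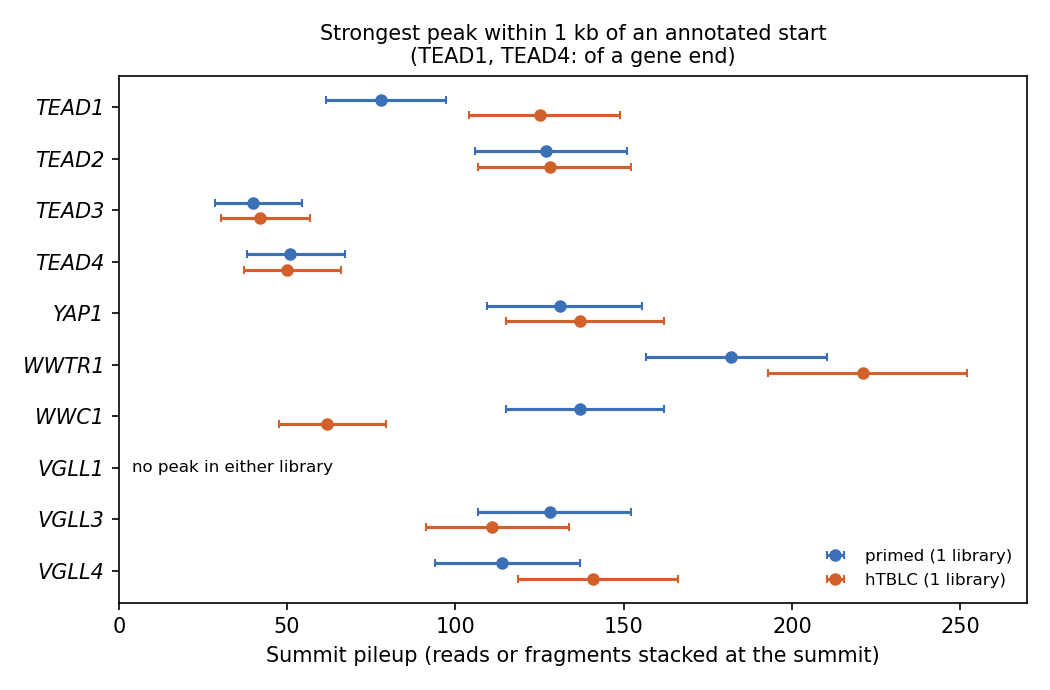
Summit pileup of the strongest peak within 1 kb of an annotated start (of a gene end for TEAD1 and TEAD4) in the primed (blue) and hTBLC (orange) library, with exact Poisson 95% intervals. WWC1 stands at 137 (primed) and 62 (hTBLC), TEAD1 at 78 and 125, and VGLL1 has no peak in either.

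Among all shared sites near these genes, starts included, the shares with large differences were close to those of the whole genome. Of 182 with a ratio, 15 (8.24%) were at or above 2, beside 7.64% of all shared sites, and 23 (12.6%) were at or below 0.5, beside 13.2%. The interval lay above 1 at 18 of these 182 sites and below 1 at 38 of the 182. Over all 147703 shared sites it lay above 1 at 16734 (11.3%) and below 1 at 26586 (18%). The median ratio was 0.855 (quartiles 0.628 to 1.19), against 0.913 (0.647 to 1.29) over all shared sites. The sites at or above 2 were in the bodies (9), the flanks (5) and at the start of a neighbouring gene (1), and none was at a member's own start. Those at or below 0.5 were in the bodies (17), the flanks (4), at a neighbouring start (1) and at the start of WWC1 (1). TEAD4 alone held 8 of the 23.

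**Figure D3:**
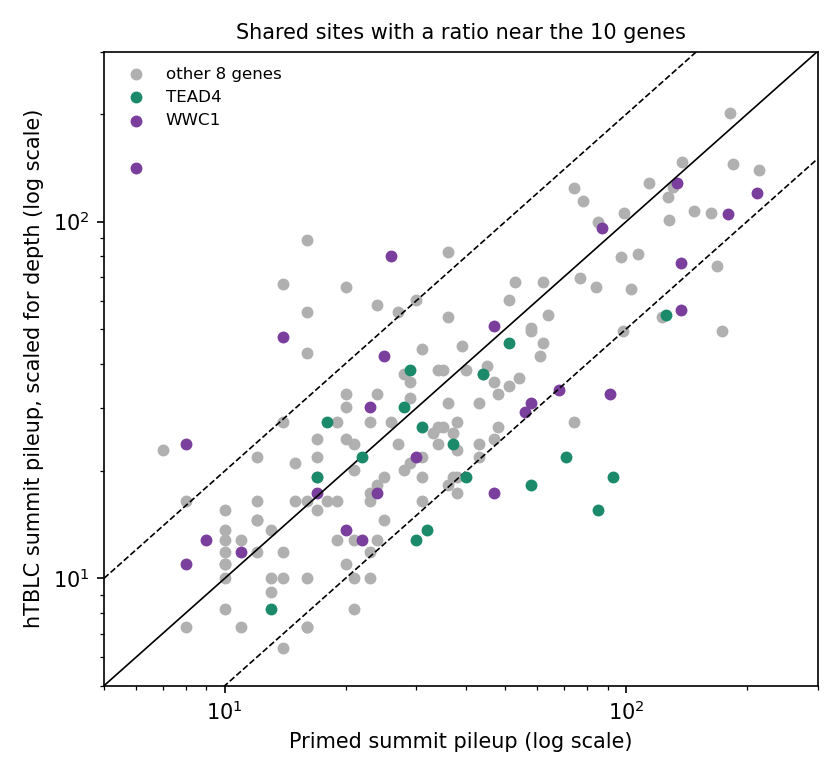
Primed against depth-scaled hTBLC summit pileup (both log scales) at the 182 shared sites near the 10 genes, with TEAD4 in green, WWC1 in purple and the other 8 genes in grey. The solid line marks equal levels and the dashed lines ratios of 2 and 0.5; the WWC1 point at a primed pileup of 6 has the highest ratio, 23.6, and 8 of the 18 TEAD4 points lie below the lower dashed line.

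WWC1 had shared sites of both directions. Inside the gene, 156464 bp from its start at chr5:168447803-168448347, the primed pileup was 6 (2.20 to 13.1) and the hTBLC pileup 155 (132 to 181). The authors' fold enrichment there was 2.51 and 20.6. The ratio of 23.6 (10.6 to 65.3) was the highest of all 147703 shared sites. The primed peak was at the edge of detection, with a −log10 p of 2.60 and a −log10 q of 1.10, below the lowest −log10 p of 2.83 in the hTBLC list. With that floor for both lists the site was hTBLC only and ranked 13 by fold among 99738 such sites.

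Some other sites in the far part of WWC1 were higher in hTBLC and some in primed cells. A site 142606 bp from the start stood at 26 (17.0 to 38.1, primed) and 88 (70.6 to 108, hTBLC), 3.09-fold (1.98 to 4.99) apart. One 180899 bp from it, just past the gene, stood at 14 (7.65 to 23.5) and 52 (38.8 to 68.2), 3.39-fold (1.85 to 6.63) apart. Library-only sites beyond 100 kb were found on both sides: 3 were hTBLC only, with pileups of 25, 30 and 18, and 4 were primed only, with 15, 9, 23 and 20. Leaving out the site of ratio 23.6, by which the gene was chosen, 3 of the 6 other shared sites beyond 100 kb had an interval above 1 and 1 below it. The start of the next gene, RARS1, was alike in both libraries, with 87 and 105 and a ratio of 1.10 (0.82 to 1.48).

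From 25 kb upstream to 75 kb downstream of the WWC1 start, 8 of 16 shared sites had an interval below 1 and 0 above it, with a median ratio of 0.582. The library-only sites of this stretch numbered 6 in hTBLCs and 4 in primed cells. The strong sites in this stretch included one 22123 bp upstream with 180 (primed) and 115 (hTBLC), a ratio of 0.58 (0.46 to 0.74), and one 43238 bp into the gene with 212 and 132, a ratio of 0.57 (0.45 to 0.71). The lowest ratio, 0.361 (0.24 to 0.54), was 73651 bp into the gene, with 91 and 36. The strongest primed-only site of WWC1, at chr5:168345962-168346812 with a pileup of 58 (44 to 75), lay between them. The limits of these stretches were chosen after the values were seen.

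**Figure D4:**
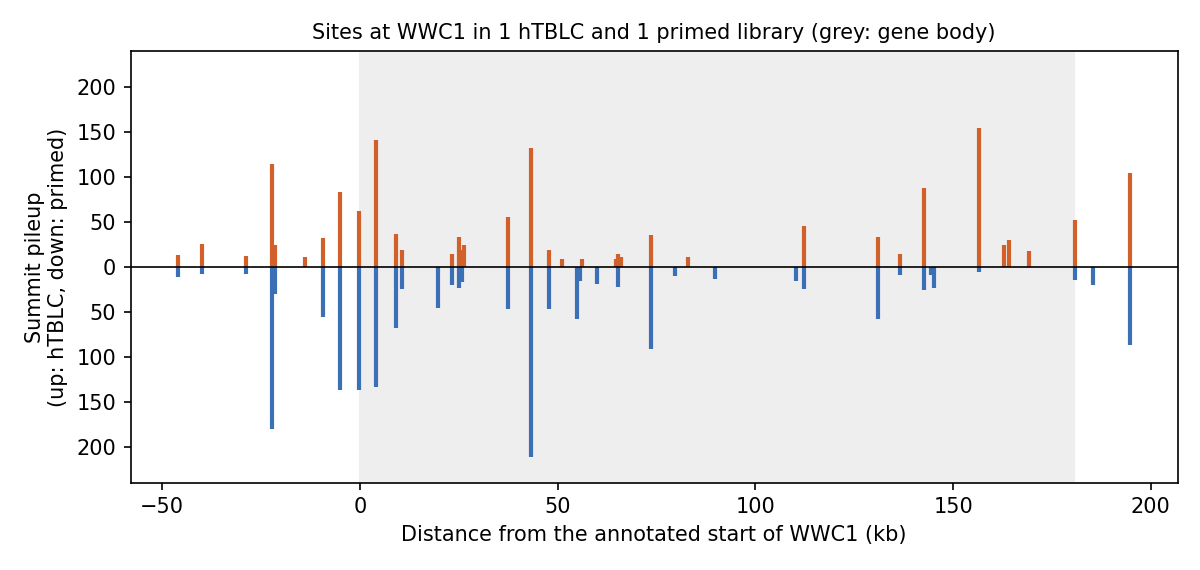
Summit pileup of each site against its distance from the WWC1 start in kb, hTBLC upward (orange) and primed downward (blue), with the gene body in grey. The site at 156 kb reaches 155 in hTBLCs and 6 in primed cells, while the start itself reaches 62 and 137.

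TEAD4, the TEAD factor known for the trophectoderm, had equal levels at its ends but lower levels in hTBLC at many sites inside and beside it. Of 18 shared sites, 8 (44.4%) had a ratio at or below 0.5 and 0 at or above 2, and 1.01% of 9855 genes with at least 10 shared sites had as large a share. With a −log10 q of at least 10 in both lists it was 2 of 8. That filter takes out weak hTBLC peaks, and a site that loses its hTBLC peak no longer counts as shared. The hTBLC −log10 q was 4.59 and 7.74 at the 2 sites of lowest ratio. The filter therefore cannot tell whether the differences hold at strong peaks. Without it, 15 of 164 shared sites (9.15%) of the other 9 genes were at or below 0.5. The 8 TEAD4 sites had primed pileups from 30 to 126 (median 64.5) and hTBLC pileups from 14 to 60 (median 20.5). The highest upper bound among their intervals was 0.833. Of these, 6 were among the 7 shared sites of the gene body away from its ends. The other 10 shared sites had ratios of 0.632 to 1.52, with intervals that all included 1. The TEAD4 values were singled out after they were seen, among 10 genes.

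The lowest ratio near any of the 10 genes was in TEAD4, at chr12:2998670-2999596, where the primed pileup was 85 (67.9 to 105) and the hTBLC pileup 17 (9.90 to 27.2). The ratio was 0.183 (0.102 to 0.310), although the summits of the 2 libraries lay 439 bp apart within that site. A flanking site at chr12:3084684-3085126 stood at 93 (75.1 to 114) and 21 (13.0 to 32.1), with a ratio of 0.206 (0.12 to 0.33). On the other side of the gene chr12:2944444-2945207 had 71 and 24, a ratio of 0.309 (0.19 to 0.50), and inside it chr12:2963878-2964374 had 58 and 20, a ratio of 0.315 (0.18 to 0.53). All 4 were thus below 0.5 at levels well above the median peak in the primed library and close to it in the hTBLC library. The library-only sites of TEAD4 numbered 6 on each side, the strongest by fold having pileups of 13 (primed) and 17 (hTBLC) and the highest by pileup 37 and 27.

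**Figure D5:**
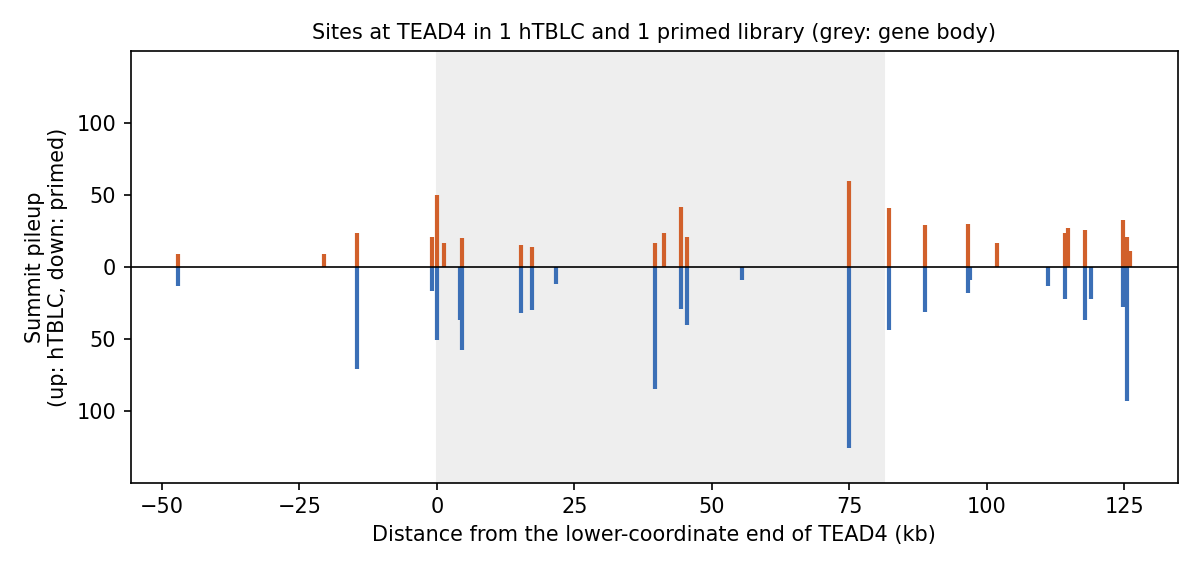
Summit pileup of each site against its distance in kb from the lower-coordinate end of TEAD4, hTBLC upward (orange) and primed downward (blue), with the gene body in grey. The 8 sites with a ratio at or below 0.5 reach 30 to 126 on the primed side and 14 to 60 on the hTBLC side.

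TEAD1 had sites of both directions, while TEAD2 had 3 of 8 and TEAD3 4 of 17 shared sites with an interval below 1 and none above it. Of all shared sites, 18% had an interval below 1 and 11.3% above it. TEAD1, the longest of the 10 genes, had 28 shared sites with a median ratio of 0.824, 4 of them with an interval above 1 and 7 below it. Its lowest was at chr11:12724568-12725106, with 173 (148 to 201) in primed cells, 54 (40.6 to 70.5) in hTBLCs and a ratio of 0.285 (0.206 to 0.389). Above 2 were 2 TEAD1 sites, one with 20 and 72 (ratio 3.29, 1.98 to 5.70) and one with 24 and 64 (2.44, 1.5 to 4.07). The strongest TEAD1 library-only sites by fold had pileups of 37 (hTBLC, chr11:12966070-12966409, rank 1307 of 98280) and 25 (primed). TEAD2 had 8 shared sites, 7 of them below 1, with a median of 0.692. Its lowest, 21915 bp from the start beyond the far end of the gene, stood at 169 (144 to 196) and 82 (65.2 to 102), with a ratio of 0.443 (0.34 to 0.58). TEAD3 had 17 shared sites with a median of 0.737, and the lowest of them, inside the gene, had 74 and 30, a ratio of 0.370 (0.23 to 0.57). The strongest library-only sites by fold had 27 (hTBLC) and 14 (primed) at TEAD2 and 14 (hTBLC) and 33 (primed) at TEAD3, although by pileup a TEAD2 primed-only site of 46, the hTBLC-only one of 40 at its start and a TEAD3 hTBLC-only site of 29 were higher.

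YAP1 and WWTR1 were close to the genome-wide ratio over their shared sites, with medians of 0.957 and 0.964. In YAP1 a stretch of 4318 bp, chr11:102183802-102188119, held 5 sites, of which 3 were hTBLC only with pileups of 25, 54 and 41, 1 was shared with 7 (2.81 to 14.4, primed) and 25 (16.2 to 36.9, hTBLC), and 1 was primed only. This stretch was picked after its values were seen. The site with 54 (40.6 to 70.5) was the strongest hTBLC-only site of YAP1 by fold, and the strongest primed-only site by fold had 22, while by pileup a primed-only site at chr11:102269183-102269428 reached 59 (44.9 to 76.1). In WWTR1 the site at chr3:149534687-149535227 stood at 16 (9.15 to 26.0) and 97 (78.7 to 118), with a ratio of 5.54 (3.24 to 10.1), the second highest near these genes. WWTR1 had 0 of 24 shared sites at or below 0.5. Its strongest library-only sites by fold were one of 62 (47.5 to 79.5) in primed cells and one of 37 (26.1 to 51.0) in hTBLCs.

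The VGLL genes differed from each other in how much changed around them. VGLL4 had sites in both directions: chr3:11593450-11594068, inside the gene, stood at 14 (7.65 to 23.5) and 73 (57.2 to 91.8), with a ratio of 4.76 (2.66 to 9.14), and a flanking site at chr3:11530001-11530514 had 16 and 61, a ratio of 3.48 (1.98 to 6.47). A flanking site on the other side stood at 123 (102 to 147) and 59 (44.9 to 76.1), with a ratio of 0.44 (0.32 to 0.60). Its strongest library-only sites by fold had 48 (hTBLC) and 15 (primed), and the highest primed-only pileup was 25. Around VGLL3 all 8 shared sites had an interval that included 1, and away from the start none of its sites passed a pileup of 34. Its strongest library-only sites by fold had 17 (hTBLC) and 14 (primed). VGLL1 had 8 sites, 6 of them shared, and 1 with an interval that left out 1. That one was at the start of the neighbouring gene HTATSF1, where 36 (25.2 to 49.8) and 90 (72.4 to 111) gave a ratio of 2.28 (1.54 to 3.46). The strongest of its 2 hTBLC-only sites had a pileup of 14, and it had no primed-only site.

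Among 41 further genes of the pathway, the 5′ ends were open in both libraries at 29 of the 30 with an annotated start. Over all 15811 protein-coding genes with one, the share was 79.3%. FRMD6 had no peak in either library. Of the 29 ratios, 0 were at or above 2 and 1 was at or below 0.5, beside 2.05% and 4.17% of all genes with a ratio. That was RASSF6, a RASSF-family gene, with a primed pileup of 126 (105 to 150), an hTBLC pileup of 42 (30.3 to 56.8) and a ratio of 0.304 (0.21 to 0.43). The core kinases and adaptors, which include STK4, LATS1, LATS2, MOB1A and NF2, had 6 of 7 ratios above 1 and a median of 1.10. Their intervals included 1 except at LATS1, LATS2 and MOB1B, where they lay above it. The upstream regulators had 12 of 14 above 1 and a median of 1.18. Textbook target genes of YAP1 and TEAD such as CCN2 and AXL had 2 of 7 above 1 (ANKRD1 and MYOF) and a median of 0.877. All 7 of these intervals included 1. Targets without an annotated start had gene-end ratios of 1.01 (CCN1), 1.54 (CRIM1, 1.11 to 2.13), 1.31 (ASAP1), 0.837 (ARHGEF17) and 0.673 (DOCK5). Over all genes with a ratio 53% were above 1 and the median was 1.02. The list was made with earlier results of these data known.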

How the data were processed

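One primed and 1 hTBLC ATAC-seq library of WIBR3 were used, each with its own peak list in hg38. Bowtie2, Picard and MACS2 were used per the submitters' processing notes. For their versions, roles and settings, the transposase shift and the treatment of duplicates, the sources used here give nothing. Per peak, the authors deposited a score, a fold ratio of the summit over the local background, a −log10 p-value, a −log10 q-value and a summit offset in bp. The deposited score was not used. The lowest −log10 p in the authors' lists was 2.00 (primed) and 2.83 (hTBLC), so the lists end at different thresholds, and 252 and 327 ranks have no line, so a site in one of these counts as absent.

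Whole summit pileups were computed from the fold and the −log10 p for 99.999% (primed) and 99.998% (hTBLC) of peaks, with a tolerance of 0.001. The most frequent lowest background, 1.79 and 1.96, gave the relative depth; read totals were not analysed here. Overlapping or touching peaks of both libraries on chromosomes 1 to 22 and X were merged into sites, leaving out 16 peaks per list on other sequences. A ratio compares the highest summit of each library in a site where these peaks overlap. Gene bodies, starts and promoter sequences came from RefSeq tables of GRCh38.p14, which matched 10 of 10 genes by symbol and gave 14 starts for 8 of them; for TEAD1 and TEAD4 gene ends were used. A 5′ end was open where a peak lay within 1 kb.

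No test across conditions was made. The text names all 10 genes with their 5′ ends, the 5 highest and 5 lowest ratios, and pathway genes at or past 2 or 0.5 or open in 1 library. It also names the strongest library-only sites of the 10 genes by fold, except the hTBLC-only one of WWC1. Other sites and genes were named after their values were seen. The members and lists were chosen with earlier results of these data known. The settings varied were the −log10 q (5 or 10 as a minimum), a common −log10 p floor, reciprocal overlap of 50%, a gap of up to 500 bp, flanks of 10 kb, start windows of 500 and 2500 bp and no scaling. Paired summits within 150 bp, sites without other genes' starts and a pileup of at least 20 were added after the data were seen. On simulated data the steps recovered 100% of 20000 pileups and 100% of 3000 site classes. Those data were made with the same formula and with isolated peaks. They check the code, and cannot show that the deposited values follow the formula or that classes hold for adjoining peaks. Python 3.11.15 with numpy 2.4.6, pandas 2.3.3, scipy 1.17.1 and matplotlib 3.10.9 was used.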

Additional observations from a re-analysis of the deposited data

How the results depend on the processing

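Counts of sites near the 10 genes moved with the peak threshold. With a −log10 q of at least 5 in both lists, 69 sites were hTBLC only and 65 primed only, and 8 shared sites had a ratio at or above 2 and 13 at or below 0.5. With at least 10 these counts were 42, 35, 5 and 8. A reciprocal overlap of 50% left 9 shared sites at or above 2. At TEAD4 the sites at or below 0.5 numbered 6 of 14 with a −log10 q of at least 5, 2 of 8 with at least 10 and 7 of 18 without scaling. The −log10 q filters take out weak peaks, so a site with a large difference can leave the shared class under them. The interior WWC1 site was hTBLC only in both stricter settings, at rank 19 of 48389 and 39 of 30594 by fold. A start window of 2500 bp brought the genes with a start or gene end open in both libraries from 9 to 10, adding VGLL1. The other 46 values of the main comparisons under an alternative stayed within the limit set for each. For counts this was 1.5 times the reported count, and for the hTBLC-only share its counting interval. For the median ratio at the 5′ ends it was the standard deviation of the members' log2 ratios, a wide limit. That median ran from 0.920 to 1.05 under the alternatives. No paired analysis was possible because each group has 1 library. A weak peak of a few stacked reads decides whether a site counts as shared, and differences between cultures were not measured.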
